A study of Homo sapiens with 26 samples.

Results

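The genes described here are 39 genes of epithelial adhesion and cell junctions, chosen by symbol from a fixed list, and all 39 were found among the 19128 genes of the knockout tables and among the 19117 genes of the parental table. Their RNA was measured by polyA RNA sequencing in human small cell lung cancer lines, established cultures of a lung tumour. In the knockout experiment, the lines NCI-H526, COR-L311, NCI-H211 and NCI-H1048 were infected by lentivirus with either of 2 guide RNAs against the transcription factor gene POU2F3 (sgPOU2F3) or with 1 control guide (sgNeg), 12 libraries in all. NCI-H1048 and NCI-H211 were harvested 4 days after infection, COR-L311 and NCI-H526 after 5 days, so the day and the line cannot be told apart. The other 14 of the 26 libraries came from uninfected parental lines in exponential growth, 1 library per line: the same 4 lines, and DMS114, DMS79, NCI-H128, NCI-H146, NCI-H446, NCI-H510, NCI-H524, NCI-H69, NCI-H82 and NCI-H889. Per the labels' protocols NCI-H1048 was grown in HITES medium, NCI-H128 in serum-rich RPMI and the others in RPMI with serum or in HITES, so the medium also differs between lines. The authors deposited 1 combined sgPOU2F3 value per line for both guides, so no spread between guides or cultures is known, and the line is the unit of replication.

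Values are FPKM, fragments per kilobase of transcript and per M (mega) mapped fragments, which corrects for transcript length and lets levels of different genes be set side by side. Depth, estimated from the steps between low values, was 19.9 to 33.3 M fragments in the combined sgPOU2F3 columns, 10.3 to 16.6 M in sgNeg and 10.6 to 34.5 M in the parental libraries. Genes listed at 0 made up 13.8% to 15.9% of the sgPOU2F3 columns and 18.3% to 21.5% of the sgNeg columns, so a gene near 0 was more often above 0 in sgPOU2F3. POU2F3 itself was at 204 FPKM with sgPOU2F3 against 501 FPKM with sgNeg in NCI-H526, 218 against 272 in COR-L311, 21.3 against 307 in NCI-H211 and 60.8 against 198 in NCI-H1048. An edited gene can still be transcribed, so these levels are not a measure of editing. The parental levels of 11 tuft cell markers summed to 527 to 1557 FPKM in the 4 knockout lines and to 3.48 to 29.8 FPKM in the 10 others. Leukocyte markers (8 genes) summed to 15.03 FPKM or less in every library. Fibroblast markers (8 genes) summed to 927 FPKM in DMS114 and to at most 120 FPKM elsewhere, and endothelial markers (6 genes) to 64.5 FPKM in NCI-H446 and 51.3 FPKM in NCI-H69. Both of these endothelial sums came almost wholly from 1 junction gene, CDH5 at 63.8 FPKM in NCI-H446 and CLDN5 at 51.1 FPKM in NCI-H69, with PECAM1 at 0.0466 and 0.0677 FPKM. Of the sgPOU2F3 columns, COR-L311 had CLDN5 at 17.8 FPKM, against 0.81 FPKM with sgNeg.

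Epithelial cells are held together by 3 kinds of junction. At adherens junctions, cadherins of neighbouring cells bind each other through calcium-dependent contacts and are tied to actin by catenins. At desmosomes, desmogleins and desmocollins are tied to keratin filaments by plakoglobin, plakophilins and desmoplakin. Tight junctions seal the space between cells with claudins, occludin and related membrane proteins, which scaffold proteins such as ZO-1 anchor below the membrane, and polarity proteins of the Crumbs, Par and Scribble groups keep the apical and basal sides apart. Matriptase and prostasin, membrane-bound serine proteases, and their inhibitors act on the same epithelial surfaces. E-cadherin, EpCAM and the claudins are standard markers of epithelial identity, and the repressors ZEB1, ZEB2 and the SNAIL proteins are known to bind E-box sequences in promoters of such genes.

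RefSeq promoter windows were matched for 24 of the 39 genes. Shown are the 250 bases upstream of the annotated start of the claudin genes CLDN1, CLDN4 and CLDN6, whose knockout ratios were the widest among the 39 genes, and of CLDN7 and CRB3, the matched genes with the most copies of the E-box CAGGTG. The motif was read on both strands (CAGGTG or CACCTG) and is in capitals. The motifs were chosen after the expression values had been seen. In GRCh38.p14, the CLDN1 window is chr3:190322447-190322696 on the minus strand, CLDN4 is chr7:73830746-73830995 on the plus strand, CLDN6 is chr16:3018184-3018433 on the minus strand, CLDN7 is chr17:7262479-7262728 on the minus strand, and CRB3 is chr19:6464021-6464270 on the plus strand.
CLDN1: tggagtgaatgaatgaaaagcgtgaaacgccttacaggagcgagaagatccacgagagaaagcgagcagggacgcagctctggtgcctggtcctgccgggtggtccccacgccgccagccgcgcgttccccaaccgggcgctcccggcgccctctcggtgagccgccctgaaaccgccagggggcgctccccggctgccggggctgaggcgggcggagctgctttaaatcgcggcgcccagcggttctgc
CLDN4: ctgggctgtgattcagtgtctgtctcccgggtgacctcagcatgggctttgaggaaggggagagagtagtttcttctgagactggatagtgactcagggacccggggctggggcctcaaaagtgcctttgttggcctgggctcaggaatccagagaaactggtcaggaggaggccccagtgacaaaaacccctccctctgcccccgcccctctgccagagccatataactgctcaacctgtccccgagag
CLDN6: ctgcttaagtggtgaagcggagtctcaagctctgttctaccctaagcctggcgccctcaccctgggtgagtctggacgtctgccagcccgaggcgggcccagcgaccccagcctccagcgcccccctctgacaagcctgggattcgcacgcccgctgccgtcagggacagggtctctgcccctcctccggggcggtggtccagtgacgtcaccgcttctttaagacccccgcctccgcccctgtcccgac
CLDN7: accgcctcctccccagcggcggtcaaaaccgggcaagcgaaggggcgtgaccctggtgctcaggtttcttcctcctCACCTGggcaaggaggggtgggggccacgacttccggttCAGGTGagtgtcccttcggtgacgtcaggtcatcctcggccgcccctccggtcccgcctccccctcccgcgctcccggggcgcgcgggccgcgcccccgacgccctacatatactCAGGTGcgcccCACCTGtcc
CRB3: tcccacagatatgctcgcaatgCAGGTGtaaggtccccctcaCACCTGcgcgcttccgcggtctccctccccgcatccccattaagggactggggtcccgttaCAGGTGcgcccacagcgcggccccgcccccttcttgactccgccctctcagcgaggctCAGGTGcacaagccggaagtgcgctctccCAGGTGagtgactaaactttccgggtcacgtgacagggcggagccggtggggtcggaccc

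The CLDN7 window held 4 copies of the E-box, with first bases at -174, -135, -20 and -9 from the start, and CRB3 held 5, at -228, -208, -147, -89 and -60. The windows of CLDN1, CLDN4 and CLDN6 held none. A further RefSeq window of CLDN7, from an alternative start, also held none. Among the matched genes, 10 of 24 had the E-box in at least 1 window (CLDN7, CRB3, DSC2, DSG2, DSP, JUP, OCLN, SPINT1, TJP1 and TJP3), or 11 of their 37 windows (29.7%), against 17.5% of all 35116 windows of the same length. The octamer ATGCAAAT, the motif class that POU2F proteins bind, was in 1.63% of all windows and in 0 of the 37. The palindrome AACCGGTT, a form of the motif bound by grainyhead-like factors, was in 0.117% of all windows and in 0 of the 37. A match describes letters only, and these sequences were not tested for binding.

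Across the 14 parental lines, 8 of the 39 genes were at 1 FPKM or more in every line and 3 (DSC3, DSG3 and CLDN6) were under 1 FPKM in every line. The 8 were the catenin genes CTNNA1, CTNND1 and CTNNB1, plakoglobin (JUP), CLDN12, cingulin (CGN), the junctional adhesion molecule F11R and the polarity gene LLGL2. The number of genes at 1 FPKM or more was 34 in NCI-H526, 31 in COR-L311, 32 in NCI-H211 and 35 in NCI-H1048. Among the 10 other lines it was 36 in NCI-H510, 34 in DMS79, 33 in NCI-H146, 31 in NCI-H128, 29 in NCI-H889 and 28 in NCI-H69, then 24 in NCI-H524, 18 in DMS114, 17 in NCI-H82 and 15 in NCI-H446. The median of the 39 genes was between 12.8 and 18.1 FPKM in the 4 knockout lines, and between 0.18 FPKM in NCI-H446 and 30.9 FPKM in NCI-H510 among the others. Over all genes the median was between 3.22 and 5.43 FPKM in every line.

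**Figure D1:**
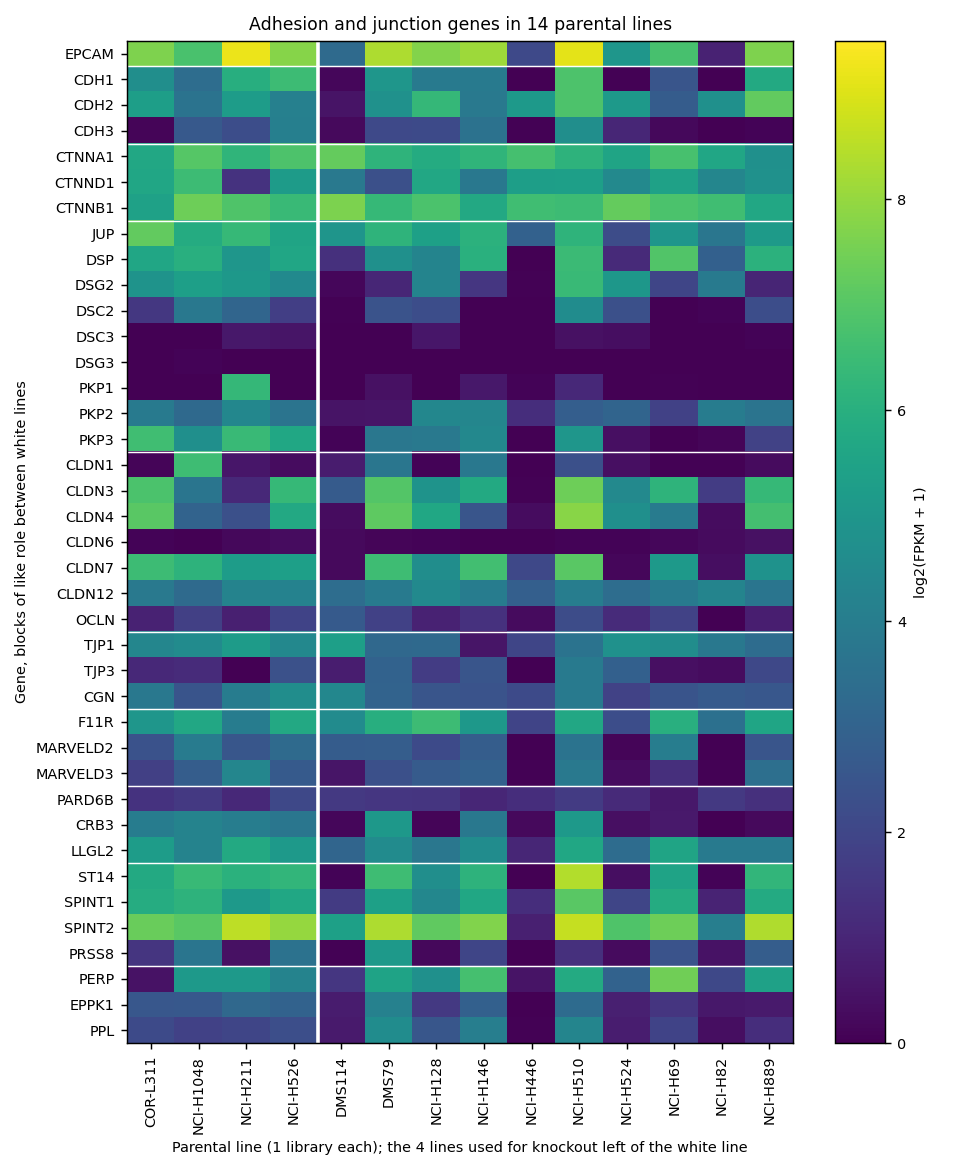
Each cell gives log2(FPKM + 1) of a gene (down the page, white lines between groups of like role) in 1 parental library (across), with the 4 lines used for knockout left of the white line. DMS114, NCI-H446, NCI-H524 and NCI-H82 are dark for many genes, such as CDH1 at 0.12 FPKM or less, while the catenin rows are bright in nearly every line.

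For 10 of the 39 genes the 4 lowest lines were DMS114, NCI-H446, NCI-H524 and NCI-H82. These genes were EPCAM, CDH1, JUP, DSP, CLDN7, MARVELD3, ST14, SPINT1, SPINT2 and PPL, and no other set of 4 lines was shared by more than 2 genes. In some of them a wide step parted the fourth-lowest from the fifth-lowest line. ST14, the protease matriptase, was at 0.0128 FPKM in NCI-H446, 0.0728 in DMS114, 0.0745 in NCI-H82 and 0.26 in NCI-H524, and at 25.0 FPKM (NCI-H128) or more in the other 10 lines. CDH1, the E-cadherin gene, was at 0.12 FPKM or less in those 4 lines and at 4.62 FPKM (NCI-H69) or more elsewhere. CLDN7, a claudin found along the lateral membrane, was at 3.18 FPKM (NCI-H446) or less in them and at 24.5 FPKM (NCI-H128) or more elsewhere. SPINT1, which encodes the matriptase inhibitor HAI-1, was at 2.93 FPKM or less in them and at 20.3 FPKM or more elsewhere. The step was shallow for JUP, at 29.9 FPKM in DMS114 and 30.5 FPKM in NCI-H69, and for SPINT2, at 118 FPKM in NCI-H524 and 135 FPKM in NCI-H1048. These 4 lines were singled out from the values themselves and carry no common label, so no mean or test was taken over them. Their estimated depths (13.3 M in DMS114, 25.1 M in NCI-H446, 30.4 M in NCI-H524 and 30.1 M in NCI-H82) lie within the range of the other parental libraries. In those lines 8 epithelial keratins summed to 2.41, 0.48, 4.14 and 2.59 FPKM, and in the other 10 to 170.4 to 917 FPKM. The cause of the low values was not tested.

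Among the adherens junction genes, EPCAM, a surface glycoprotein that regulates adhesion, was the highest of the cadherin and adhesion molecules in most lines. It was at 602 FPKM in NCI-H211, 219 in NCI-H526, 200.5 in COR-L311 and 109 in NCI-H1048. In the other lines it was between 106 FPKM (NCI-H69) and 556 FPKM (NCI-H510), except for 31.0 in NCI-H524, 8.84 in DMS114, 3.29 in NCI-H446 and 0.89 in NCI-H82. CDH1 was at 90.6 FPKM in NCI-H526, 61.5 in NCI-H211, 25.1 in COR-L311 and 9.54 in NCI-H1048, and reached 114 FPKM in NCI-H510. CDH2, the neuronal and mesenchymal cadherin, did not follow CDH1: it was at 5.74 FPKM or more in 13 of 14 lines, including 33.3 in NCI-H446, 33.6 in NCI-H524 and 26.2 in NCI-H82, and was at 0.41 FPKM in DMS114. DMS114 thus had all 3 cadherins of the list under 1 FPKM, with CDH3 (placental cadherin) at 0.17 FPKM. The catenins CTNNA1 and CTNNB1, which join cadherins to actin, were high in every line, CTNNA1 between 26.6 FPKM (NCI-H889) and 151 FPKM (DMS114) and CTNNB1 between 41.9 FPKM (COR-L311) and 198 FPKM (DMS114). CTNND1, or p120-catenin, which stabilises cadherins at the membrane, was at 1.63 FPKM in NCI-H211 and 3.95 FPKM in DMS79, and at 13.1 FPKM or more elsewhere.

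Of the 12 genes of the desmosome group, the shared plaque genes were the most widely transcribed. Desmoplakin (DSP) was between 31.1 and 62.4 FPKM in the 4 knockout lines, and among the others ran from 121 FPKM in NCI-H69 to listed at 0 in NCI-H446. Plakophilin 3 (PKP3) was at 96.0 FPKM in COR-L311, 85.8 in NCI-H211, 49.8 in NCI-H526 and 25.5 in NCI-H1048, while the highest of the 10 others was 30.9 FPKM in NCI-H510 and their median was 1.47 FPKM. The groups overlapped through NCI-H510 alone. PKP1, a plakophilin of stratified epithelia, was at 78.6 FPKM in NCI-H211 and at 1.11 FPKM or less in the other 13 lines. PERP, a membrane protein of desmosomes and a target of p53 family factors, was at 33.3, 34.2 and 17.9 FPKM in NCI-H1048, NCI-H211 and NCI-H526 but at 0.39 FPKM in COR-L311, and reached 172 FPKM in NCI-H69. Among the desmosomal cadherins, DSG2 was at 21.8 to 40.2 FPKM in the 4 knockout lines and at 0.0279 to 85.7 FPKM in the others, and its partner DSC2 was at 1.93 to 12.8 FPKM and 0 to 23.5 FPKM. DSG3 and DSC3, cadherins of stratified squamous epithelia, stayed at 0.0707 and 0.52 FPKM or less in all 14 lines. The linker proteins periplakin (PPL) and epiplakin (EPPK1) did not exceed 3.83 and 8.15 FPKM in the 4 knockout lines.

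The 6 claudins of the list differed in which one led. CLDN4 was the highest in COR-L311 at 134 FPKM, CLDN3 in NCI-H526 at 82.3 FPKM, CLDN7 in NCI-H211 at 37.2 FPKM and CLDN1 in NCI-H1048 at 93.6 FPKM, so each of the 4 knockout lines had a different leading claudin. CLDN3 and CLDN4, neighbouring genes that are targets of Clostridium perfringens enterotoxin, were low together in NCI-H211 (1.16 and 4.03 FPKM). CLDN1 was at 0.0862, 0.47 and 0.23 FPKM in COR-L311, NCI-H211 and NCI-H526. In DMS114, NCI-H446 and NCI-H82 the highest claudin was CLDN12, a widely expressed family member, at 9.55, 6.27 and 18.6 FPKM. The 6 claudins together summed to 9.73 FPKM in NCI-H446 and 546 FPKM in NCI-H510, the lowest and highest of the 14. Occludin (OCLN) never exceeded 5.38 FPKM, and that level was in DMS114. The scaffold genes TJP1 (ZO-1) and CGN were at 19.5 to 35.7 and 4.52 to 24.5 FPKM in the 4 knockout lines and at 40.5 and 19.9 FPKM in DMS114.

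Polarity and protease genes gave a further split. CRB3, the Crumbs protein of epithelia, was at 12.4 to 18.1 FPKM in all 4 knockout lines. In the others it was at 33.8 FPKM in NCI-H510, 32.6 in DMS79 and 13.0 in NCI-H146, and at 0.56 FPKM or less in the remaining 7. NCI-H128, NCI-H69 and NCI-H889 thus had CRB3 under 1 FPKM with CDH1 between 4.62 and 53.4 FPKM. PARD6B, an adaptor of the Par complex, was narrow at 0.54 to 3.12 FPKM in all lines. SPINT2, the gene of the inhibitor HAI-2, was the highest of the protease group in the 4 knockout lines, at 135 to 374 FPKM, and was at 0.77 FPKM (NCI-H446, where SPINT1 was at 1.37 FPKM) to 402 FPKM in the others. Prostasin (PRSS8) ranged from 0 to 33.4 FPKM and was at 0.34 FPKM in NCI-H211.

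The parental comparison asked whether the 4 knockout lines differed from the 10 others. A limma fit on log2(FPKM + 1) tested 13226 genes, of which the 4 lines had 28 (0.212%) higher and 5 (0.0378%) lower at a Benjamini-Hochberg adjusted p of 0.05. None of the 35 tested junction genes passed, and 4 reached an unadjusted p under 0.05, all higher, against 4.6% of all genes higher and 4.06% lower. They were PKP3, with a difference of 3.90 ± 0.97 (log2 scale, SE, n = 4 and 10 lines, limma adjusted p = 0.12), DSG2 at 2.42 ± 1.01 (adjusted p = 0.50), CRB3 at 2.42 ± 0.99 (adjusted p = 0.49) and JUP at 1.44 ± 0.66 (adjusted p = 0.56). Over the alternatives tried, the adjusted p of PKP3 ran from 0.12 to 0.34. The mean was higher in the 4 lines for 29 of 35 junction genes, against 49.8% of all genes. The median difference was 0.95 against -0.00 for all genes. These genes share the same libraries and were not tested as a set. In DMS114, NCI-H446, NCI-H524 and NCI-H82, the lines singled out above from these values, the median of the 39 genes was 0.18 to 2.67 FPKM. In DMS79, NCI-H128, NCI-H146, NCI-H510, NCI-H69 and NCI-H889 it was 4.62 to 30.9 FPKM, which overlaps the 12.8 to 18.1 FPKM of the 4 knockout lines. Single genes did not all follow this split. DSG2 was at 31.4 FPKM in NCI-H524 and 14.2 FPKM in NCI-H82, but at 2.92 FPKM or less in DMS79, NCI-H146, NCI-H69 and NCI-H889. PKP3 was at 0.0221 FPKM in NCI-H69. No tested junction gene had its 4 knockout lines wholly above or below the 10 others, which 0.401% and 0.25% of all genes did. DSC3, DSG3, PKP1 and CLDN6 had too few lines at 1 FPKM to be tested.

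Of 80 other junction genes in the tables, 52 were tested and 0 passed in limma. At an unadjusted p under 0.05, 5 were higher and 1 lower, against 4.6% and 4.06% of all genes. The 3 smallest p among positive differences were those of PVRL3, a nectin (1.23 ± 0.53), MET, the hepatocyte growth factor receptor (2.19 ± 0.97), and GJB2, a connexin (1.35 ± 0.60), and among negative differences those of LIN7A, a polarity scaffold (-2.11 ± 0.78), CRB1 (-1.30 ± 0.67) and CLDN5 (-1.55 ± 0.85, all SE, n = 4 and 10 lines). CRB1 and CLDN5 did not reach an unadjusted p of 0.05 (limma p = 0.070 and 0.086). MET was at 9.70 to 26.7 FPKM in the 4 knockout lines, and was at 0.51 FPKM or less in DMS114, NCI-H446, NCI-H524, NCI-H82 and NCI-H128. Its ligand gene HGF was at 343 FPKM in DMS114 and 34.6 FPKM in NCI-H446, and at 0.15 FPKM or less in the other 12 lines. The gap junction gene GJA1 was at 932 FPKM in DMS114 and 59.6 FPKM in NCI-H69. Single lines also had a cadherin or claudin from outside the 39 genes at a high level: CDH5, the endothelial cadherin, was at 63.8 FPKM in NCI-H446 and 1.62 FPKM or less elsewhere, and CLDN18, the stomach and lung claudin, at 78.4 FPKM in NCI-H146 and 1.33 FPKM or less elsewhere.

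Of 17 regulators of the epithelial state, 14 were tested and 0 passed in limma. At an unadjusted p under 0.05, 3 were higher and 1 lower, against 4.6% and 4.06% of all genes. GRHL2, a grainyhead-like activator of junction genes, was at 11.5 to 18.6 FPKM in the 4 knockout lines, against 0 to 26.8 FPKM in the others (difference 2.56 ± 0.82, SE, limma adjusted p = 0.30). KLF4 stood at 2.49 ± 0.74 and OVOL1 at 1.48 ± 0.67, while ZEB1, a repressor of CDH1, stood at -1.74 ± 0.78. The other 10 had differences between -1.16 (ZEB2) and 1.46 (ESRP2), with ESRP1 at 1.22, OVOL2 at 1.37, KLF5 at 0.41, GRHL1 at 0.06, TWIST1 at 0.08, SNAI1 at -0.25, SNAI2 at -0.79 and SNAI3 at -0.37. GRHL2 was under 0.03 FPKM in DMS114, NCI-H446, NCI-H524 and NCI-H82, but also in NCI-H69, where CDH1 was at 4.62 and DSP at 121 FPKM. ZEB1 was at 24.9 FPKM in NCI-H446, 16.9 in NCI-H524 and 8.74 in NCI-H82, and at 5.98 FPKM or less elsewhere, with 0.69 in DMS114. ZEB2 was at 36.4 FPKM in DMS114, 12.01 in NCI-H446, 10.9 in NCI-H524 and 6.97 in NCI-H82, and at 3.62 FPKM or less elsewhere. The splicing regulator ESRP1 was at 2.56 FPKM or less in those 4 lines and at 27.0 FPKM or more in the other 10.

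**Figure D2:**
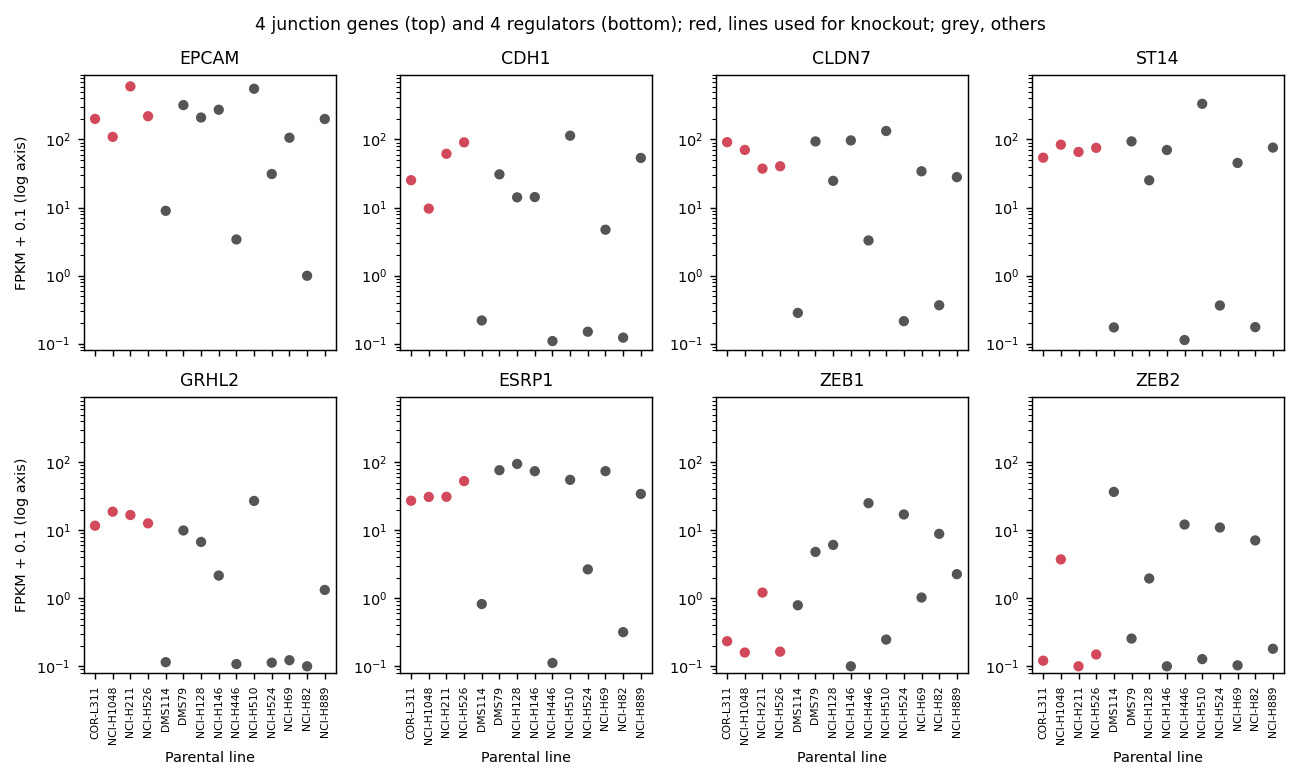
Each panel plots FPKM + 0.1 (log axis) of 1 gene in the 14 parental lines, with 4 junction genes above and 4 regulators below, and with the lines used for knockout in red and the 10 others in grey. CDH1 and ST14 are near the floor in DMS114, NCI-H446, NCI-H524 and NCI-H82, where ZEB2 is between 6.97 and 36.4 FPKM.

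The knockout comparison asked whether the same genes differed with sgPOU2F3 across the 4 lines. Limma, with the line as a block, tested 12387 genes, and 2 (0.0161%) were higher and 0 (0%) lower with sgPOU2F3 at an adjusted p of 0.05. None of the 35 tested junction genes passed. At an unadjusted p under 0.05 there were 3, all higher, against 4.67% of all genes higher and 7.08% lower. The median of the mean log2 ratios was 0.06 for the junction genes and -0.02 for all tested genes. Higher values in 4 of 4 lines were found for DSC2, PERP and PPL (9.81% of all genes), and lower values in 4 of 4 for EPPK1 (12.9% of all genes), whose mean log2 ratio was -0.11 ± 0.09 (SD, n = 4 lines). EPCAM was nearly level in every line, at 223 FPKM with sgPOU2F3 against 215 with sgNeg in NCI-H526, 190 against 198 in COR-L311, 500.3 against 533 in NCI-H211 and 99.4 against 113 in NCI-H1048.

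**Figure D3:**
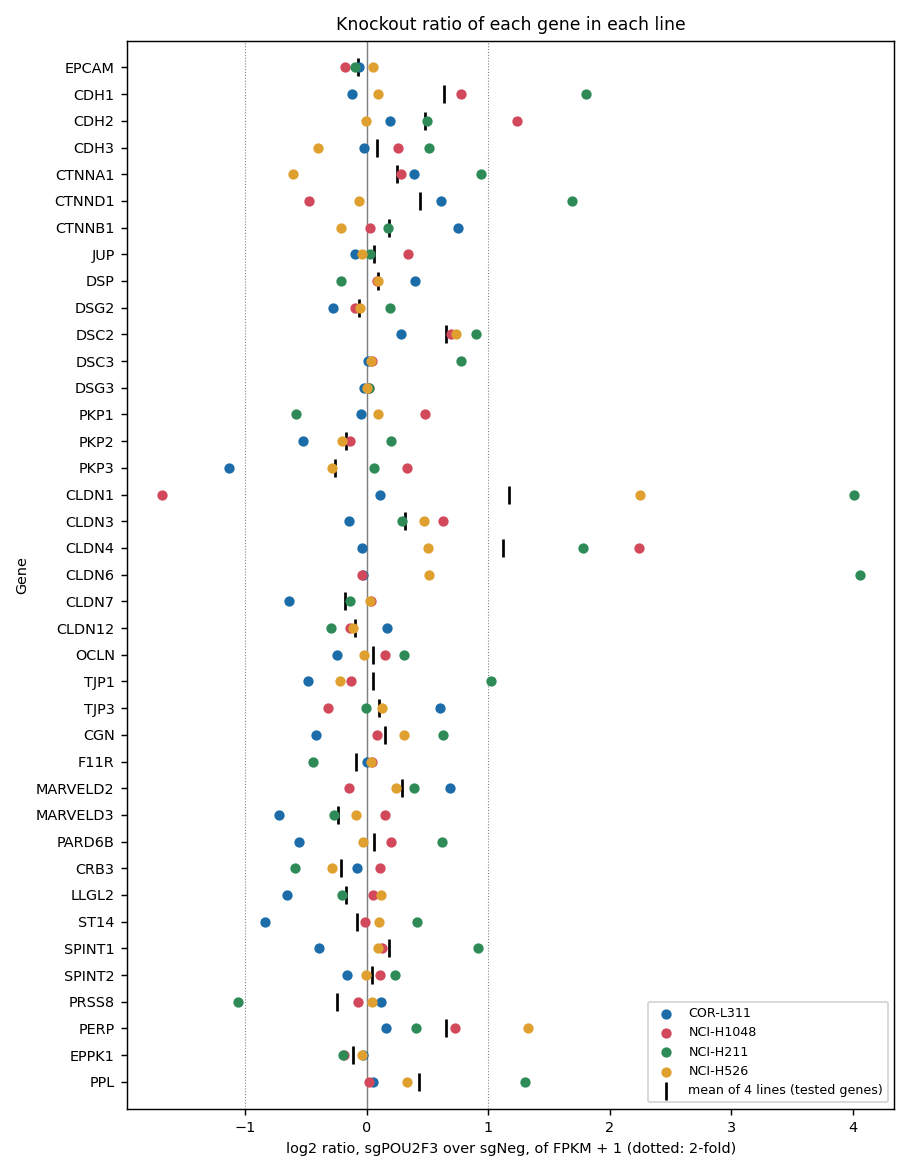
Each point is the log2 ratio of FPKM + 1, sgPOU2F3 over sgNeg, of 1 gene (down the page) in 1 line (colour), and the black bar is the mean of the 4 lines for genes that were tested; dotted lines mark 2-fold. Most points lie between the dotted lines, and CLDN1, CLDN4 and CLDN6 reach beyond 2 in at least 1 line.

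Within single lines, differences were counted by size, at 2-fold or more on the FPKM + 1 scale, with no test. There were 14 such differences among 137 gene and line pairs, 11 higher and 3 lower with sgPOU2F3, in 11 genes. A pair was taken if either arm reached 1 FPKM. CLDN1 in NCI-H211 and NCI-H526 and CLDN6 in NCI-H211 did so only with sgPOU2F3 and could only count as higher. PRSS8 in NCI-H211 did so only with sgNeg and could only count as lower. NCI-H211 had 7 higher and 1 lower of 36 genes (all genes: 6.86% and 4.83%). NCI-H1048 had 2 higher and 1 lower of 35 (1.2% and 1.03%), NCI-H526 had 2 higher and 0 lower of 35 (2.05% and 0.496%), and COR-L311 had 0 higher and 1 lower of 31 (4.28% and 2.12%). POU2F3 itself had log2 ratios of -0.31 in COR-L311, -1.29 in NCI-H526, -1.69 in NCI-H1048 and -3.79 in NCI-H211. Whether the junction ratios follow those of POU2F3 was not tested. The median log2 ratio of the junction genes was 0.35 in NCI-H211, -0.08 in COR-L311, 0.03 in NCI-H526 and 0.08 in NCI-H1048, beside medians of -0.03 to -0.00 over all genes. The other 28 genes stayed within 2-fold in every line where they reached 1 FPKM, with ratios between -0.84 (ST14 in COR-L311) and 0.94 (CTNNA1 in NCI-H211).

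The claudins held the widest ratios. CLDN4 was at 118 FPKM with sgPOU2F3 against 83.3 with sgNeg in NCI-H526, 229 against 236 in COR-L311, 18.1 against 4.55 in NCI-H211 and 70.1 against 14.03 in NCI-H1048. It was thus level in COR-L311, where it was already the leading claudin, and at least 2-fold higher in both lines harvested on day 4. Its mean log2 ratio was 1.12 ± 1.07 (SD, n = 4 lines, higher in 3 of 4, limma adjusted p = 0.40). CLDN1 went both ways: it was at 18.4 FPKM against 61.1 in NCI-H1048, 21.3 against 0.38 in NCI-H211 and 8.38 against 0.98 in NCI-H526, and near 0 in both arms of COR-L311 (0.0787 FPKM and listed at 0). Its mean log2 ratio was 1.17 ± 2.48 (SD, n = 4 lines, limma adjusted p = 0.605), and 0.23 without NCI-H211. CLDN1 met the filter of 4 of 8 columns only through sgPOU2F3, as NCI-H1048 was the only line with sgNeg at 1 FPKM or more. With sgPOU2F3 the 3 lines that had CLDN1 RNA were at 8.38 to 21.3 FPKM, against 0.38 to 61.1 FPKM with sgNeg.

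CLDN6, an early embryonic claudin, was at 15.6 FPKM with sgPOU2F3 in NCI-H211, where it was listed at 0 with sgNeg, and at 0.72 FPKM or less in every other column. It could not be tested, since too few columns reached 1 FPKM, and its exons overlap those of TNFRSF12A on the opposite strand, whose reads an unstranded kit cannot tell apart. CLDN9, a neighbour of CLDN6 that is not among the 39 genes, was at 7.17 FPKM against listed at 0 in NCI-H211, 8.37 against 2.63 in COR-L311, 4.78 against 0.68 in NCI-H526 and 0.30 against 0.27 in NCI-H1048. It was higher in 4 of 4 lines (mean log2 ratio 1.55 ± 1.23, SD, limma adjusted p = 0.39). CLDN9 met the filter of 4 of 8 columns only through sgPOU2F3, as COR-L311 was the only line with sgNeg at 1 FPKM or more. The claudins that stayed within 2-fold were CLDN3, CLDN7 and CLDN12. CLDN3 had ratios between -0.14 in COR-L311 and 0.63 in NCI-H1048, CLDN7 between -0.64 in COR-L311 and 0.04 in NCI-H1048, and CLDN12 between -0.29 and 0.17. Of the other tight junction genes, TJP1 was at 58.2 FPKM against 28.1 in NCI-H211 and was lower with sgPOU2F3 in the remaining 3 lines: 13.7 against 16.1 in NCI-H526, 8.03 against 11.6 in COR-L311 and 16.4 against 18.1 in NCI-H1048. Its mean log2 ratio of 0.05 ± 0.67 became -0.28 without NCI-H211.

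**Figure D4:**
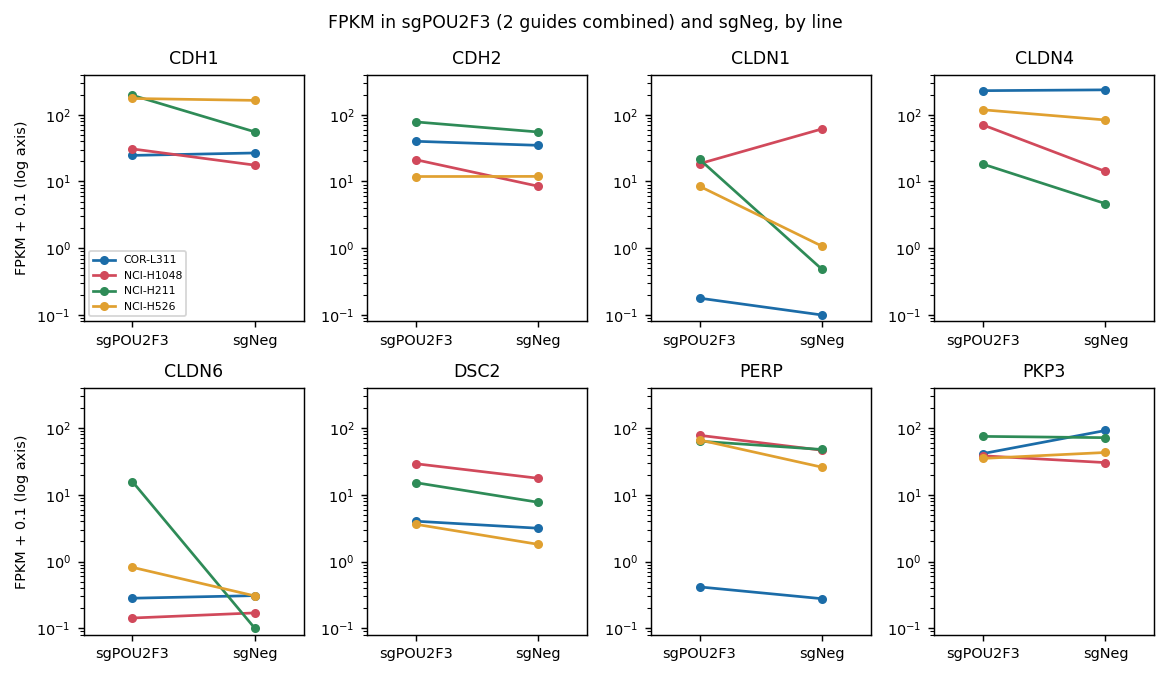
FPKM + 0.1 (log axis) of 8 genes is shown with sgPOU2F3 (left) and sgNeg (right), 1 line of colour per cell line. CLDN4 lines slope down to the right in NCI-H1048 and NCI-H211, CLDN1 lines cross, and all 4 lines of DSC2 and PERP slope down to the right.

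The classical cadherins were at least as high with sgPOU2F3 in the day 4 lines. CDH1 was at 196 FPKM against 55.3 in NCI-H211 and 30.6 against 17.5 in NCI-H1048, and was nearly level at 175 against 164 in NCI-H526 and 24.5 against 26.6 in COR-L311. Its mean log2 ratio was 0.64 ± 0.86 (SD, n = 4 lines, limma adjusted p = 0.47), and 0.25 without NCI-H211. CDH2 was at 21.0 FPKM against 8.38 in NCI-H1048, 77.9 against 55.0 in NCI-H211, 39.9 against 34.7 in COR-L311 and 11.8 in both arms of NCI-H526 (mean 0.48 ± 0.54, limma adjusted p = 0.43), with a mean of 0.23 without NCI-H1048. E-cadherin and N-cadherin RNA were thus both higher with sgPOU2F3 in both day 4 lines. For NCI-H211 the ratio of CDH1 to CDH2 stood at 2.51 with sgPOU2F3, 1.005 with sgNeg and 1.67 in the parental library. NCI-H1048 had 1.46, 2.09 and 0.84 in the same order, so its sgPOU2F3 ratio lay between those of sgNeg and the parental library. NCI-H526 had 14.9, 13.9 and 5.46, and COR-L311 had 0.61, 0.77 and 0.65. The control ratio thus also differed from that of the uninfected line, and these differences were not tested. CTNND1 was at 6.004 FPKM against 1.17 in NCI-H211, still the lowest of the 4 lines, and at 55.4 against 36.0 in COR-L311, 64.9 against 90.7 in NCI-H1048 and 63.4 against 66.2 in NCI-H526. CTNNA1 and CTNNB1 were within 2-fold everywhere.

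In the desmosome group, DSC2 had the smallest p of the 35 tested genes. It was at 3.51 FPKM with sgPOU2F3 against 1.71 with sgNeg in NCI-H526, 3.92 against 3.05 in COR-L311, 15.1 against 7.62 in NCI-H211 and 29.1 against 17.6 in NCI-H1048. Its mean log2 ratio was 0.65 ± 0.26 (SD, n = 4 lines, higher in 4 of 4, limma adjusted p = 0.37). Its partner DSG2 had ratios of -0.27 to 0.19. PERP was at 66.2 FPKM against 25.8 in NCI-H526, 77.7 against 46.4 in NCI-H1048, 63.4 against 47.6 in NCI-H211 and 0.32 against 0.18 in COR-L311 (mean 0.66 ± 0.50, higher in 4 of 4, limma adjusted p = 0.40), with a mean of 0.43 without NCI-H526. In COR-L311 PERP was close to 0 in both arms, as in its parental library. PPL was at 19.3 FPKM against 7.22 in NCI-H211, 6.75 against 5.16 in NCI-H526, 6.13 against 6.01 in NCI-H1048 and 3.93 against 3.75 in COR-L311, so that its mean of 0.43 ± 0.60 was 0.14 without NCI-H211. PKP3, which links desmosomes to keratin, was the gene lower by 2-fold in COR-L311, at 41.4 against 91.7 FPKM. In the other lines it was at 38.3 against 30.2 (NCI-H1048), 74.8 against 71.6 (NCI-H211) and 35.0 against 42.9 (NCI-H526), and its mean log2 ratio of -0.26 ± 0.64 became 0.03 without COR-L311. The plaque genes JUP and DSP had ratios between -0.21 and 0.40 in all lines, and PKP1 was at 37.9 against 56.99 FPKM in NCI-H211, the line that transcribed it.

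The polarity genes CRB3, LLGL2 and PARD6B and the protease inhibitors SPINT1 and SPINT2 were within 2-fold in every line. SPINT1 came closest, at 62.4 FPKM with sgPOU2F3 against 32.7 with sgNeg in NCI-H211. ST14 was at 37.1 against 67.0 FPKM in COR-L311 and 70.4 against 52.5 in NCI-H211. PRSS8 was at 0.70 FPKM against 2.55 in NCI-H211, the 1 junction gene lower by 2-fold there, and within -0.07 to 0.12 on the log2 scale in the other lines.

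The lines were also compared by harvest day. A limma test of day 4 lines against day 5 lines on the 4 ratios called 0 genes at an adjusted p of 0.05. CLDN4 had a difference of 1.78 between the mean log2 ratios of 2.01 on day 4 and 0.23 on day 5 (adjusted p = 0.55), and CDH1 one of 1.30 (adjusted p = 0.82), with the day and the line not told apart. Beside the wide ratios of NCI-H211, 8 epithelial keratins summed there to 2955 FPKM with sgPOU2F3 against 603 FPKM with sgNeg. They summed to 792 against 499 FPKM in NCI-H1048 and to 396 against 345 FPKM in NCI-H526, but to 864 against 1226 FPKM in COR-L311. COR-L311 had KRT8 at 460 against 565 FPKM and KRT18 at 391 against 655 FPKM, but KRT19 at 6.45 against 0.51 FPKM. KRT19 was higher in 4 of 4 lines and passed the threshold (mean log2 ratio 2.02 ± 0.27, SD, limma adjusted p = 0.032). KRT17 was also higher in 4 of 4 (2.59 ± 3.23, limma adjusted p = 0.44). Neuroendocrine markers (12 genes) summed to 36.5 against 92.9 FPKM in NCI-H211 and 34.3 against 52.3 FPKM in NCI-H1048, both day 4, and to 434 against 353 FPKM in NCI-H526 and 920.0 against 468 FPKM in COR-L311, both day 5. Only 2 or 3 of the 12 markers were at 1 FPKM or more in each column of the day 4 lines. INSM1, a neuroendocrine transcription factor, had log2 ratios of -1.63 in NCI-H211, -1.26 in NCI-H1048, 0.77 in NCI-H526 and 1.68 in COR-L311. NCAM1, a neural adhesion molecule, had -1.83, -0.53, 0.27 and 1.65 in the same order. Other markers of the list did not follow INSM1 in every line: CHGA had -0.57 in COR-L311, SYP 0.19 in NCI-H1048 and -0.19 in NCI-H526, and SCG2 0.26 in NCI-H211. CHGB had the signs of INSM1, but it was at 0.10 FPKM or less in every column of the day 4 lines. Its log2 ratio in NCI-H526 was only 0.01. NEUROD1, a neurogenic factor, was at 11.6 FPKM with sgPOU2F3 against 0.11 with sgNeg in NCI-H526 and at 13.8 against 0.17 in COR-L311, while all 4 columns of the day 4 lines list it at 0. The part of either marker list in the junction ratios was not tested. In such bulk cultures, fewer cells of a kind and less RNA per cell cannot be told apart.

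The control columns also differed from the uninfected lines. Set against its own parental library, which was normalized in a separate table and grown separately, the sgNeg column was 2-fold or more higher for 11 gene and line pairs and lower for 0. The widest were PRSS8 in NCI-H1048, at 39.2 FPKM in sgNeg against 11.8 FPKM in the parental library (log2 ratio 1.65), and CLDN3 in the same line, at 36.8 against 12.1 FPKM (1.53). In NCI-H211 they were CLDN12, PARD6B, PRSS8 and PPL, in COR-L311 MARVELD3 and PARD6B, and in NCI-H526 DSP, with CDH3 and TJP3 also in NCI-H1048. PPL was thus at 19.3 FPKM with sgPOU2F3, 7.22 with sgNeg and 2.95 in the parental library of NCI-H211, a step of the same direction on both sides. Among all genes the shares higher and lower in sgNeg were 2.86% and 2.81% in NCI-H526, 4.51% and 2.83% in COR-L311, 3.8% and 1.96% in NCI-H211 and 3.77% and 1.24% in NCI-H1048. The sgNeg column enters both ratios. At 2-fold or more, 11 gene and line pairs were higher in this comparison and 11 in the knockout. No junction gene reached a log2 ratio of 2 in this comparison, while CLDN1, CLDN4 and CLDN6 did in the knockout. The level of 2 was picked after the values had been seen, and the difference between the comparisons was not tested.

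**Figure D5:**
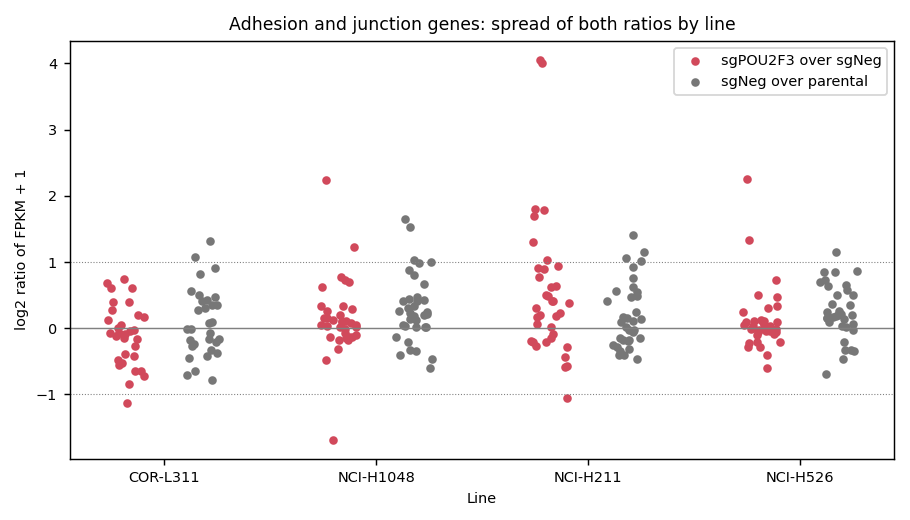
Points are the log2 ratios of FPKM + 1 of the junction genes at 1 FPKM or more, sgPOU2F3 over sgNeg (red) and sgNeg over the parental library (grey), by line; dotted lines mark 2-fold. The grey points reach 1.65 at most, and the red points of NCI-H211 reach 4.05 (CLDN6).

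Of the 80 other junction genes, 50 were tested in the knockout fit and 0 passed, with a median of 0.01. At an unadjusted p under 0.05, 1 was higher (CLDN9) and 2 lower, against 4.67% and 7.08% of all genes. CLDN9 had met the filter only through sgPOU2F3. The lower ones were CLDN10, a claudin of ion-permeable junctions, at 3.20 FPKM with sgPOU2F3 against 7.02 with sgNeg in COR-L311, 4.97 against 11.8 in NCI-H211, 7.28 against 11.2 in NCI-H526 and 0.27 against 0.40 in NCI-H1048 (mean log2 ratio -0.68 ± 0.43, limma adjusted p = 0.39), and DLG1, a Scribble group scaffold (-0.26 ± 0.15). Next by p, with an unadjusted p above 0.05, were LIN7A (0.62 ± 0.68) and AMOT (0.90 ± 1.22) with positive and PARD6A (-0.26 ± 0.18, all SD, n = 4 lines) with negative mean ratios.

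Of the 17 regulators, 13 were tested and 0 passed. At an unadjusted p under 0.05, 3 were higher and 1 lower, against 4.67% and 7.08% of all genes. ZEB2 and SNAI2, among the higher ones, met the filter of 4 of 8 columns only through sgPOU2F3. NCI-H1048 was the only line where their sgNeg value reached 1 FPKM, so the count of higher genes depends on the filter. ZEB2 was higher in 4 of 4 lines, at 1.07 FPKM against 0.37 in NCI-H526, 0.84 against listed at 0 in COR-L311, 1.58 against listed at 0 in NCI-H211 and 11.4 against 7.77 in NCI-H1048 (mean log2 ratio 0.84 ± 0.39, SD, n = 4 lines, limma adjusted p = 0.38). Apart from NCI-H1048, these low values lie where the deeper sgPOU2F3 columns are more often above 0. SNAI2 was at 10.7 FPKM against 0.66 in NCI-H211 and 8.77 against 2.91 in NCI-H1048, with 1.80 and 0.0920 against listed at 0 in COR-L311 and NCI-H526 (mean 1.44 ± 1.10), and KLF5, an epithelial activator, at 44.6 against 6.43 in NCI-H211, 14.2 against 3.21 in COR-L311, 40.5 against 21.8 in NCI-H1048 and 20.4 against 21.0 in NCI-H526 (mean 1.32 ± 1.16). SNAI1 was lower in 4 of 4 lines (mean -0.46 ± 0.36). The remaining 9 had mean ratios between -0.54 (TWIST1) and -0.02 (GRHL1), with KLF4 at -0.41, ESRP1 at -0.26, ESRP2 at -0.28, OVOL1 at -0.04, OVOL2 at -0.24, SNAI3 at -0.27 and GRHL2 at -0.05. In NCI-H211, where CDH1 was at 196 FPKM against 55.3, activators and repressors of the epithelial state were found in both directions. GRHL2 was at 28.3 FPKM against 19.5, but OVOL2 was at 16.9 against 27.1, ESRP1 at 22.5 against 42.2 and KLF4 at 17.6 against 63.7. TWIST1 was at 19.1 FPKM against 71.9, while ZEB1, which had too few columns at 1 FPKM to be tested, was at 3.83 against 1.51.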

How the data were processed

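PolyA RNA was sequenced from unstranded TruSeq libraries, per the labels' protocols. The authors deposited 5 tables of FPKM; TopHat2, Cufflinks, Cuffdiff and the build hg19 are named in the submitters' processing notes, without versions or roles. Both sgPOU2F3 libraries of a line were deposited as 1 combined column. From these values log2(FPKM + 1) was tested with limma 3.58.1 (R 4.3.3), letting the prior variance follow the mean level (trend). The test of day 4 against day 5 lines, made on the log2 ratios, was fitted without the trend. The knockout fit took genes at 1 FPKM or more in at least 4 of 8 columns and had the line as a block, which pairs columns of the same line (3 residual degrees of freedom); the parental fit took genes at 1 FPKM or more in at least 4 of 14 libraries. Thresholds were a Benjamini-Hochberg adjusted p of 0.05 over all tested genes and, within a line, 2-fold with no test. The fits were tested on simulated data. Named with values are genes at 2-fold or more in any line and at 5 FPKM or more in 1 arm, and on the other lists the 3 smallest p in each direction and all tested regulators. Members and lists were chosen with earlier results of these data known. Pseudocount, filter, trend, quantile normalization, and block were varied; each of the 4 knockout lines was left out in turn, and DMS114 in the parental fit, but not the 9 other parental lines. Depth was estimated with GENCODE transcript lengths on GRCh38 and an assumed fragment length of 200 bases: 64.7% to 75.6% of low values lay within 0.1 of a whole fragment, against 20% for evenly spread values, so reads were not recovered. The parental table is called RPKM in the labels. Promoter sequences come from RefSeq on GRCh38.p14; EPCAM, CDH1, CDH3, ST14, PKP2, PKP3, PPL, PRSS8, F11R, SPINT2, MARVELD3, CTNND1, LLGL2, PARD6B and EPPK1 were not matched. With an unstranded kit, 15 of the 39 genes have exons that overlap another annotated gene, 9 of them a protein-coding one: CTNNA1, CTNND1, CLDN6, CLDN7, CLDN12, F11R, MARVELD3, CRB3 and SPINT2.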

Additional observations from a re-analysis of the deposited data

Results flagged for a closer look

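Of 105 groups of values (parental levels in the 4 knockout lines, parental levels in the 10 other lines, and knockout ratios over 4 lines), 4 held a line set apart from the others by a gap that is wide for the group's range; chance gives about 1 in 20. DSC2 was at 23.5 FPKM in NCI-H510, while the other 9 lines outside the knockout set were at 0 to 4.36 FPKM. CLDN1 was at 93.6 FPKM in the parental NCI-H1048 library, while the other knockout lines were at 0.0862 to 0.47 FPKM. The log2 ratio of F11R was -0.44 in NCI-H211 and 0.00336 to 0.0418 in the other lines. That of PRSS8 was -1.06 in NCI-H211 and -0.07 to 0.12 in the other lines, at 0.70 FPKM with sgPOU2F3 against 2.55 FPKM with sgNeg in NCI-H211. The parental NCI-H211 library was at 0.34 FPKM, so sgNeg was the highest of the 3 and stood 1.404 above the parental library on the log2 scale.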

How the results depend on the processing

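No junction gene passed the threshold in either comparison under any alternative tried. The count of all genes called in the knockout fit was 0 with a pseudocount of 0.1, with no filter, with no trend or without the replicate block, 1 after quantile normalization, and 0 to 1 with a line left out (1 without NCI-H211, 0 without any other), against 2 as reported. Junction genes at an unadjusted p under 0.05 numbered 5 after quantile normalization, 0 without the replicate block and 2 to 5 with a line left out (5 without COR-L311 or without NCI-H526), against 3. The mean ratio of PKP3 turned to 0.034 without COR-L311 (range -0.45 to 0.034) and that of TJP1 to -0.28 without NCI-H211 (range -0.28 to 0.23). In the parental fit all genes called numbered 17 to 43 with 1 of the 4 knockout lines left out (17 without COR-L311, 21 without NCI-H526) and 48 without DMS114, against 33. Junction genes at an unadjusted p under 0.05 numbered 2 to 4 with 1 of these 4 left out (2 without COR-L311, NCI-H1048 or NCI-H211) and 5 without DMS114, against 4; the other 9 parental lines were not left out. Within lines, COR-L311 had 1 gene higher with a pseudocount of 0.1, against 0, and NCI-H211 had 0 lower with a filter at 5 FPKM, against 1. The causes were not tested. The median ratio of the junction genes ran from -0.01 to 0.12 in the knockout and the median difference from 0.93 to 1.39 in the parental fit. With 1 value per line and arm, no difference within a line has an error.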
